A study of Mus musculus with 11 samples.

Results

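The 41 genes described here encode heat shock proteins, chaperones of the cytosol, mitochondria and endoplasmic reticulum (ER), and the sensors and targets of the unfolded protein response. They were listed by name, but with earlier results of these data known. Of them 37 had a usable probe set among the 22180 genes measured. In hematopoietic stem cells (HSCs) of mice given the double-stranded RNA mimic pIC, the genes of ER protein folding were higher as a group: averaged over mice with and without retinoic acid, 12 of 13 measured ER folding genes rose and 1, Dnajb9, fell, where 12.2% of all genes rose and 9.89% fell. Sdf2l1 rose by 1.26 ± 0.15 on the log2 scale (standard error, SE; a 2.40-fold difference), Dnajb11 by 0.87 ± 0.11 and Creld2 by 0.75 ± 0.11, while Dnajb9 fell (-0.72 ± 0.09). Of 5 stress genes, Atf4 and genes grouped with it, 2 rose: Asns by 0.89 ± 0.15 and Ddit3 by 0.81 ± 0.13. With retinoic acid given before pIC, neither passed the test against retinoic acid alone when all arrays were used. No listed gene passed the test for a difference between mice given retinoic acid and mice given none.

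Proteins that enter the ER are folded there by chaperones such as BiP (Hspa5) and by disulfide isomerases, and those that fail are sent back to the cytosol for degradation. When unfolded proteins build up, the ER membrane sensors IRE1 (Ern1), PERK (Eif2ak3) and ATF6 (Atf6) start the unfolded protein response, in which spliced Xbp1 and cleaved Atf6 act on promoters of ER chaperone and degradation genes, and PERK slows translation and favours Atf4. HSCs are known for a low rate of protein synthesis and for their sensitivity to misfolded protein.

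Gene expression was measured with Affymetrix arrays in HSCs sorted by flow cytometry from mice, with 11 arrays in 4 groups. The PBS group (3 arrays) came from mice injected with phosphate-buffered saline, the ATRA group (3 arrays) from mice given all-trans retinoic acid, the ligand of retinoic acid receptors, the pIC group (2 arrays) from mice given polyinosinic-polycytidylic acid, an inducer of type I interferon, and the RApIC group (3 arrays) from mice given ATRA and then pIC. For the mice's strain and age, the doses and times of injection, the sorting gate and any array batch, the labels give nothing. Nor do they state that replicates came from separate mice, so the p-values here measure the spread among these arrays only, and that spread may be technical. Values are deposited log2 intensities, and the number of arrays limits their precision. In RNA of sorted cells, fewer cells of a type and less RNA per cell cannot be told apart.

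The tests compare group means in a limma model of all 22180 genes, with a gene called higher or lower at a Benjamini-Hochberg adjusted p under 0.05. The pIC difference was read in pIC versus PBS, in RApIC versus ATRA, which shares no array with it, and as the mean of both. The remaining 4 listed genes were not measured: no probe set was named with Hsp90ab1 or Hsf1, and Dnaja1 and Pdia4 appeared only on probe sets listed with several genes.

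The sorted cells carried the markers of HSCs. Kit read 12.34 to 12.37 in PBS and 11.71 to 11.76 in pIC, and Mecom 10.10 to 10.29 in PBS and 8.68 to 8.76 in pIC. In the average over both backgrounds 9 of 10 measured HSC markers fell, as did 9.89% of all genes. The replicate 2 array of RApIC stood apart from the other pIC-treated arrays. On the first principal component of all genes, which held 55.98% of the variance, RApIC replicates 1 and 3 lay at 35.8 and 23.3, pIC at 35.0 and 37.8, arrays without pIC at -24.5 to -15.1, and RApIC replicate 2 at -4.53. Counts and named differences of the RApIC comparisons are therefore also given without it. That array was picked by its values, on an axis that separates arrays with and without pIC. Leaving it out therefore favours larger pIC differences and smaller SEs, so calls without it are description and not further support. In pIC versus PBS, which holds no RApIC array, leaving it out changes only the pooled spread of arrays and the adjusted p.

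Markers of other cells also differed with pIC. The list of 11 T- and NK-cell markers had a mean log2 level of 5.71 to 5.89 in PBS, 5.84 to 6.13 in ATRA, 6.72 to 7.12 in pIC and 5.78 to 7.67 in RApIC. In the average 3 of the 11 rose (Nkg7, Gzmb and Cd3d), and 10 of the 11 did so without RApIC replicate 2. Of 7 erythroid markers 4 rose (Klf1, Tfrc, Epor and Ermap), and without RApIC replicate 2, 5 rose and 1 fell. List levels were 8.57 to 8.87 in PBS, 8.36 to 8.46 in ATRA, 9.53 to 9.68 in pIC and 8.13 to 9.27 in RApIC. Of 14 macrophage, monocyte and neutrophil markers 3 rose (Mpeg1, Fcgr1 and Ly6c2), and 1 also fell without RApIC replicate 2. Most of this list did not move up: 9 of the 14 average differences were below 0, with a median of -0.10. Its mean levels were 6.13 to 6.29 in PBS, 6.39 to 7.11 in ATRA, 6.81 to 6.83 in pIC and 6.62 to 7.08 in RApIC. Of 7 megakaryocyte and platelet markers Itga2b and Treml1 rose and Vwf fell, while 2 rose and 2 fell without RApIC replicate 2. None of 10 B- and plasma-cell markers was called, with list levels between 5.92 and 6.13 on the 11 arrays. Jchain, the immunoglobulin joining chain gene of plasma cells, read 4.54 to 5.20 over all groups. The part of these markers in the results below was not tested.

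In the average over both backgrounds 20 of the 37 measured genes were called higher, where 12.2% of all genes were, and 1 was called lower, where 9.89% were. Their median difference was 0.22, against -0.0031 over all genes. With each array left out in turn 16 to 21 were called higher, and 2 were called lower without any 1 of the pIC-treated arrays. Against PBS alone, pIC gave 16 called higher (8.94% of all genes) and 2 called lower (5.75%), with a median of 0.26. Both pIC arrays lay above all 3 PBS arrays in 26 of the 37 genes (23.4% of all genes) and below them in 5 (19.6%). The count depended on single arrays: 7 were called higher without pIC replicate 1, 3 without pIC replicate 2 and 10 without PBS replicate 2, and the number called lower fell to 1 without any 1 of PBS replicate 1, PBS replicate 2 and pIC replicate 1, and to 0 without pIC replicate 2. Scaling the arrays by cyclic loess in addition gave 15 higher and 2 lower, while it moved the share of higher genes among all calls from 60.9% to 48.8%. All 5 pIC-treated arrays lay above all 6 others in 14 of the 37 genes, as they did in 5.51% of all genes, and below them in 1, Dnajb9, as in 4.84%.

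**Figure D1:**
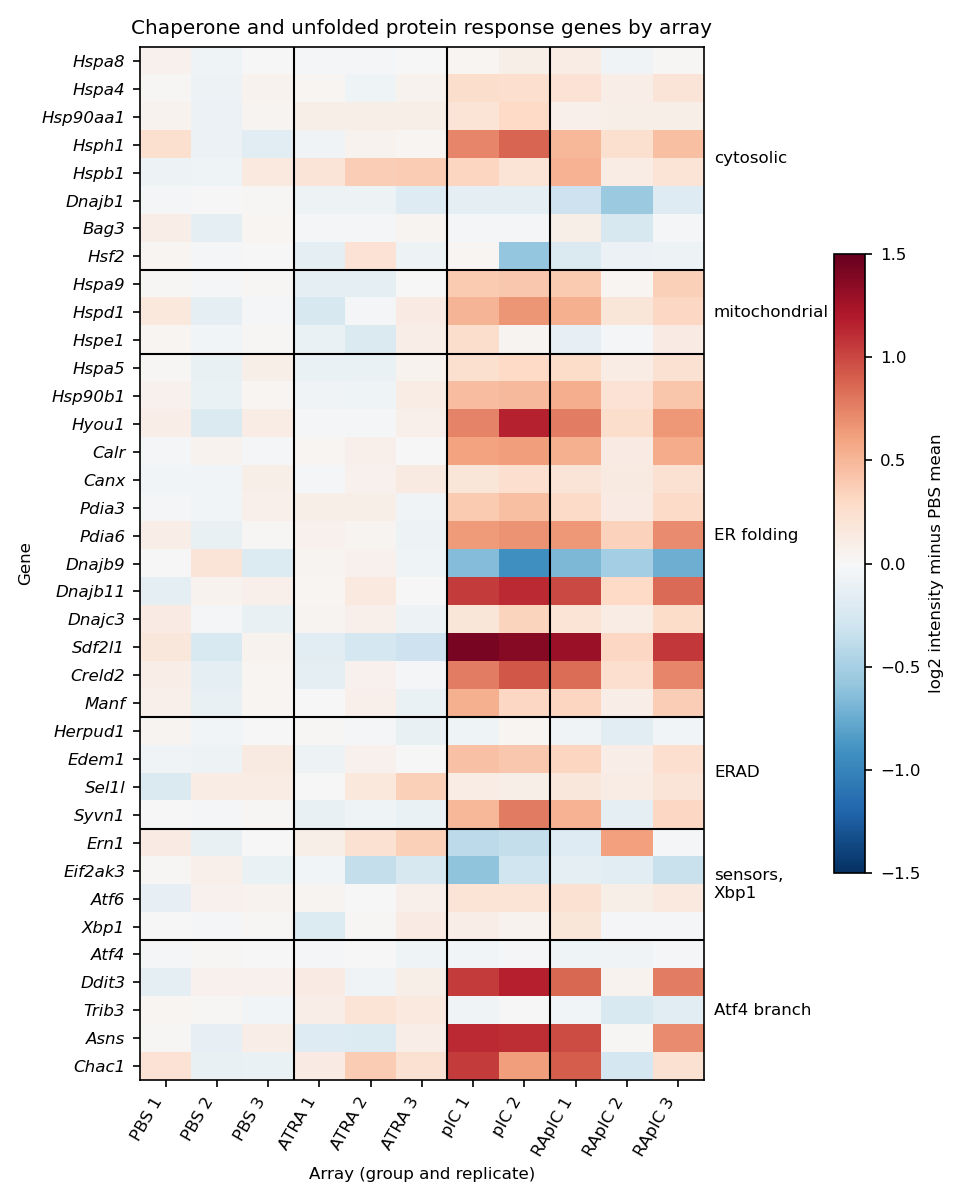
Log2 intensity of the 37 measured genes (rows, by role) minus the gene's mean over the 3 PBS arrays, on each of the 11 arrays (columns); red is above and blue below the PBS mean. Most ER folding genes are red on the pIC and RApIC arrays and paler on RApIC replicate 2, Dnajb9 is blue on all 5, and the Atf4 row is near white on all 11.

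The median of the 37 genes relative to PBS, taken as a score per array, was 0.02, -0.05 and 0.02 in PBS, -0.02, 0.02 and 0.03 in ATRA, 0.26 and 0.30 in pIC, and 0.28, 0.10 and 0.23 in RApIC. The 5 pIC-treated arrays lay above the 6 others, with RApIC replicate 2 the nearest to them. By role, the ER folding genes had scores of 0.54 and 0.48 in pIC and 0.53, 0.14 and 0.41 in RApIC, where the 6 other arrays lay between -0.10 and 0.07. The sensors and Xbp1 had scores of -0.15 and -0.13 in pIC and of 0.02, 0.03 and -0.02 in RApIC.

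**Figure D2:**
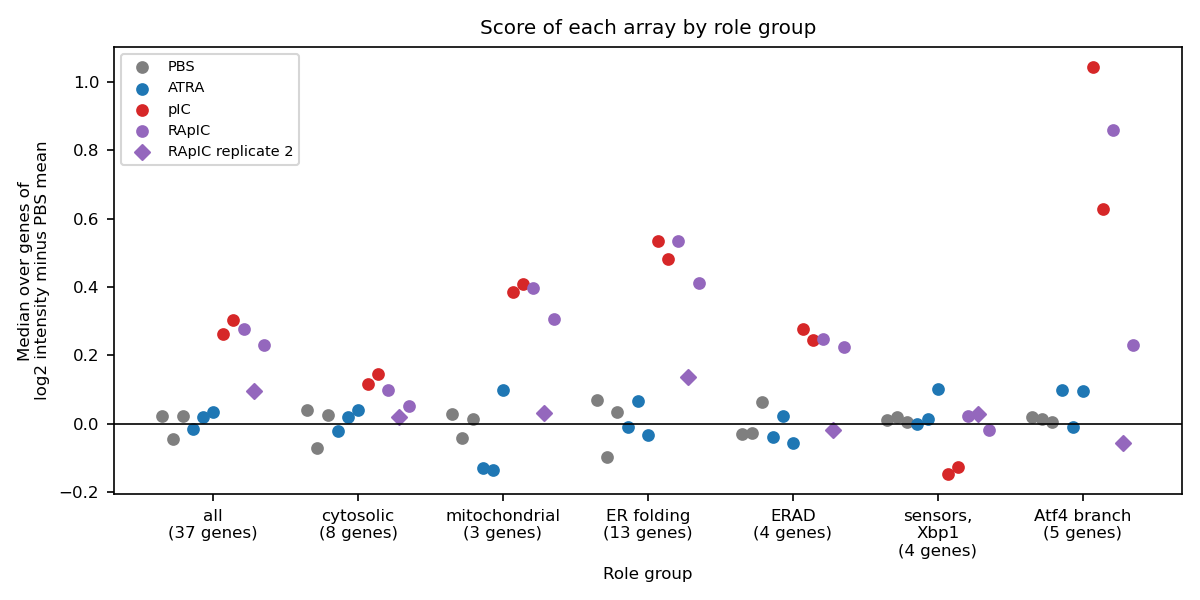
Score of each array, the median over a role group's genes of log2 intensity minus the PBS mean, for all 37 genes and for each role group (horizontal axis); points are arrays, coloured by group, and the diamond is RApIC replicate 2. ER folding scores of the pIC arrays reach 0.54 and those of the Atf4 branch 1.04, while RApIC replicate 2 lies at 0.14 and -0.06.

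None of the sensor genes passed the test for a rise in any comparison. Of Ern1, Eif2ak3, Atf6 and Xbp1, none was called in the average, where 2 differences were above 0 and 2 below. Eif2ak3, the kinase PERK, was the 1 sensor called in any comparison. It read 7.75, 7.82 and 7.64 in PBS, 7.69, 7.38 and 7.50 in ATRA, 7.13 and 7.44 in pIC and 7.60, 7.58 and 7.40 in RApIC. The pIC arrays lay below all PBS arrays, and pIC replicate 2 lay within the range of the ATRA and RApIC arrays. Eif2ak3 fell in pIC versus PBS (-0.45 ± 0.12, limma adjusted p = 0.0338) and read 0.01 ± 0.11 in RApIC versus ATRA (adjusted p = 0.988). The test of the difference between these contrasts gave 0.46 ± 0.17 (adjusted p = 0.775). With RApIC replicate 2 left out the values were -0.02 ± 0.13 in RApIC versus ATRA and 0.43 ± 0.18 for the difference between contrasts. The fall in pIC versus PBS was not called without PBS replicate 1 or 2 or either pIC array, nor when only those 2 groups were fitted, with adjusted p up to 0.265.

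Ern1, which encodes IRE1, read 9.93, 9.70 and 9.80 in PBS, 9.90, 10.04 and 10.17 in ATRA, 9.41 and 9.45 in pIC and 9.62, 10.43 and 9.79 in RApIC. Both pIC arrays were below all others, and RApIC replicate 2 was the highest of the 11. Its difference was -0.38 ± 0.19 in pIC versus PBS (limma adjusted p = 0.244) and -0.24 ± 0.13 in the average (adjusted p = 0.244). Without RApIC replicate 2 it was called lower in both, by 0.38 ± 0.11 (adjusted p = 0.0325) and by 0.36 ± 0.07 (adjusted p = 0.00515). The pIC versus PBS difference was the same with and without that array, and only its SE was smaller. Atf6 read 10.01 to 10.36 over the 11 arrays, with the 5 pIC-treated arrays above the 6 others and an average difference of 0.16 ± 0.06 (adjusted p = 0.0717). Xbp1 read 10.29 to 10.68, with an average difference of 0.07 ± 0.07 (adjusted p = 0.575) that turned negative under cyclic loess scaling (-0.01). A gene-level intensity does not separate spliced from unspliced Xbp1.

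Among the 13 ER chaperones and folding enzymes, 12 rose and 1 fell in the average over both backgrounds, 9 rose and 1 fell in pIC versus PBS, and 5 rose and 1 fell in RApIC versus ATRA. Over all genes 12.2% rose and 9.89% fell in the average, 8.94% and 5.75% in pIC versus PBS, and 3.5% and 3.71% in RApIC versus ATRA. The list's median differences were 0.43, 0.47 and 0.37. In RApIC versus ATRA without RApIC replicate 2, 9 rose and 1 fell, with a median of 0.48, and the counts in the other comparisons were the same. The median levels of the T- and NK-cell and erythroid marker lists were also higher on the pIC-treated arrays, apart from RApIC replicate 2.

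Sdf2l1, an ER protein that works with BiP and its J-domain partners, had the largest rise of the 37 genes in the average. It read 9.06, 8.66 and 8.94 in PBS, 8.72, 8.63 and 8.58 in ATRA, 10.31 and 10.25 in pIC and 10.18, 9.20 and 9.95 in RApIC. All pIC-treated arrays were above all others, and RApIC replicate 2, the lowest of the 5, lay just above the highest PBS array. Sdf2l1 rose by 1.39 ± 0.23 in pIC versus PBS (limma adjusted p = 0.00452) and by 1.13 ± 0.21 in RApIC versus ATRA (adjusted p = 0.0114), and by 1.42 ± 0.12 in the latter without RApIC replicate 2.

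Dnajb11 encodes ERdj3, a J-domain protein that hands unfolded clients to BiP. It read 8.06, 8.25 and 8.27 in PBS, 8.22, 8.34 and 8.20 in ATRA, 9.24 and 9.32 in pIC and 9.18, 8.50 and 9.05 in RApIC. The 5 pIC-treated arrays did not overlap with the others. Dnajb11 rose by 1.08 ± 0.17 in pIC versus PBS (limma adjusted p = 0.00354) and by 0.65 ± 0.15 in RApIC versus ATRA (adjusted p = 0.0280), or by 0.86 ± 0.09 without RApIC replicate 2.

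Creld2, a secreted and ER-resident protein induced by ER stress, read 9.71, 9.47 and 9.65 in PBS, 9.46, 9.68 and 9.58 in ATRA, 10.38 and 10.55 in pIC and 10.44, 9.86 and 10.35 in RApIC. Again RApIC replicate 2 was the lowest of the pIC-treated arrays and above all 6 others. Its rise was 0.85 ± 0.16 in pIC versus PBS (limma adjusted p = 0.00734) and 0.64 ± 0.14 in RApIC versus ATRA (adjusted p = 0.0242), or 0.82 ± 0.10 without RApIC replicate 2.

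Pdia6, a protein disulfide isomerase, read 9.67, 9.46 and 9.59 in PBS, 9.64, 9.61 and 9.50 in ATRA, 10.21 and 10.25 in pIC and 10.22, 9.92 and 10.28 in RApIC. Its lowest pIC-treated array, RApIC replicate 2, was clear of the highest array without pIC. Pdia6 rose by 0.66 ± 0.11 in pIC versus PBS (limma adjusted p = 0.00551) and by 0.56 ± 0.10 in RApIC versus ATRA (adjusted p = 0.0118). The latter was 0.67 ± 0.09 without RApIC replicate 2. The difference between the contrasts was -0.10 ± 0.15 (adjusted p = 0.933) with that array and 0.01 ± 0.12 without it.

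Dnajb9 moved the other way. It encodes ERdj4, a J-domain protein that binds IRE1 and aids degradation of misfolded proteins, and it is a known target of Xbp1. Dnajb9 read 10.92, 11.11 and 10.71 in PBS, 10.96, 10.98 and 10.85 in ATRA, 10.26 and 9.99 in pIC and 10.24, 10.40 and 10.18 in RApIC. All 5 pIC-treated arrays were below all 6 others, and RApIC replicate 2 was the highest of the 5. The fall was -0.79 ± 0.13 in pIC versus PBS (limma adjusted p = 0.00414) and -0.66 ± 0.11 in RApIC versus ATRA (adjusted p = 0.00948; -0.72 ± 0.12 without RApIC replicate 2). In RApIC versus ATRA and in the average it was called under all alternatives run, and in pIC versus PBS under all but the fit without pIC replicate 2 (adjusted p = 0.0554).

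Of the other ER genes, Hyou1, the large Hsp70-type exchange factor of BiP, rose by 0.75 ± 0.11 in the average (limma adjusted p = 0.00112), and Calr, the lectin chaperone calreticulin, by 0.49 ± 0.08. Hsp90b1, the ER Hsp90 known as GRP94, rose by 0.43 ± 0.07, the neurotrophic ER protein Manf by 0.35 ± 0.07 and the disulfide isomerase Pdia3 by 0.31 ± 0.06. The smallest rises of this group were those of Hspa5 (0.26 ± 0.06, adjusted p = 0.0111), the BiP co-chaperone Dnajc3, also known as P58IPK (0.22 ± 0.07, adjusted p = 0.0333), and the membrane lectin calnexin, Canx (0.17 ± 0.06, adjusted p = 0.0488). Under 18 alternatives Canx missed the threshold in 10, Dnajc3 in 9 and Hspa5 in 1. Against PBS alone none of these 3 passed, with Hspa5 at 0.27 ± 0.09 (adjusted p = 0.0781).

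**Figure D3:**
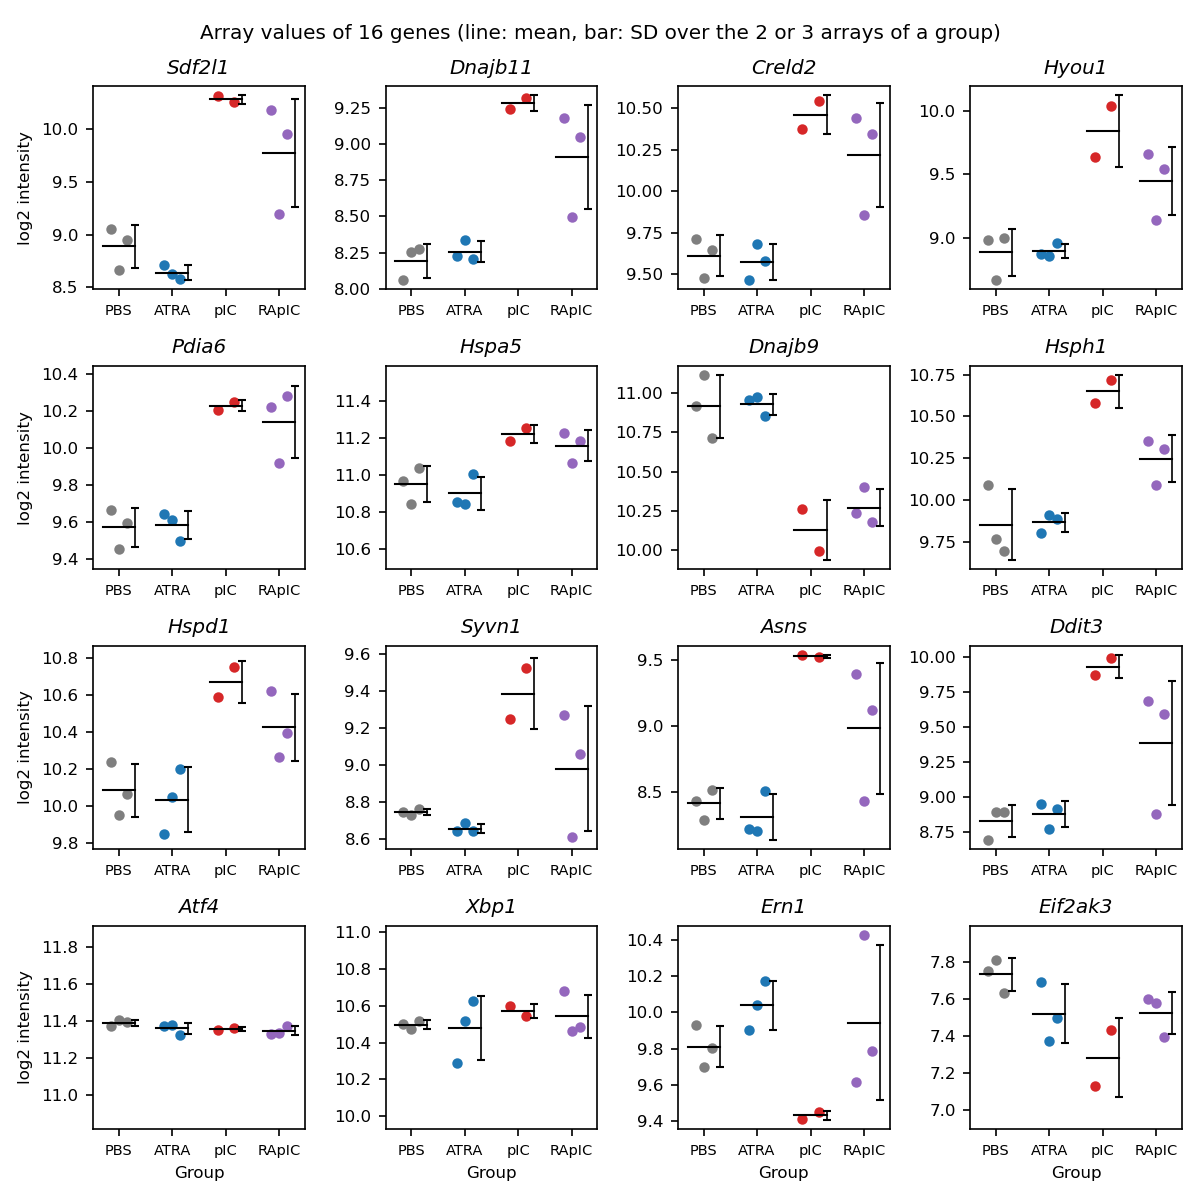
Log2 intensity of 16 of the genes on each array, by group (horizontal axis); points are arrays, horizontal lines group means and bars the SD over a group's 2 or 3 arrays. RApIC replicate 2, the middle point of its group, is the lowest pIC-treated array in Sdf2l1 (9.20), Asns (8.43) and Ddit3 (8.88) and the highest array of Ern1 (10.43), and Atf4 stays between 11.33 and 11.40.

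Several of the genes that rose carry the ER stress response element (ERSE) in their promoters, the sequence through which Atf6 and spliced Xbp1 are known to act together with NF-Y. It is shown because it is the sequence by which these genes are known to answer to the pathway, and it was read without the arrays. RefSeq promoter windows of the GRCm38.p6 assembly, from 250 bases before to 50 after the start site, were at hand for 33 of the 41 listed genes and for 27025 genes in all. The ERSE was searched as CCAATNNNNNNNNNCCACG on both strands. It was found in 8 of the 33 listed genes (24.2%) and in 37 of all 27025 genes (0.137%). The element was described in promoters of ER chaperones, so its presence in these genes is not independent of how they were listed. The shorter ERSE-II, ATTGG and CCACG with 1 base between them, searched likewise on both strands, was found in 2 of 33 (6.06%) and in 0.044% of all. Excerpts follow for the 6 genes with either element and the smallest adjusted p in the average, 5′ to 3′ on the gene's own strand. Capitals mark the fixed letters of the match, so that ATTGG and CGTGG are the parts of an ERSE that reads on the opposite strand.
Pdia6: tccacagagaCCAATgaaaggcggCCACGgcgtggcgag
Dnajb11: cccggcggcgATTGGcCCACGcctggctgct
Creld2: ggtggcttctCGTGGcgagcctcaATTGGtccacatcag
Calr: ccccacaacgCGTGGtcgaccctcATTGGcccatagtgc
Hsp90b1: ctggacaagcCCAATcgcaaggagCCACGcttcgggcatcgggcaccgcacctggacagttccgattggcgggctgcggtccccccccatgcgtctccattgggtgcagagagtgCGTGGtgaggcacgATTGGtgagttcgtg
Syvn1: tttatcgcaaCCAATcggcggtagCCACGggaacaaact
The stretches lie at chr12:17266481-17266519 for Pdia6, chr16:22857842-22857872 for Dnajb11, chr15:88819510-88819548 for Creld2 and chr19:6046522-6046560 for Syvn1 on the plus strand, and at chr8:84847065-84847103 for Calr and chr10:86705523-86705666 for Hsp90b1 on the minus strand. Counted from the start site, the match of Pdia6 spans -98 to -80, that of Syvn1 -44 to -26, and the 2 matches of Hsp90b1, in opposite directions, -212 to -194 and -107 to -89. The ERSE-II of Dnajb11 lies past the start site, at 8 to 18.

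The 8 listed genes with an ERSE were Hspa5, Hsp90b1, Calr, Canx, Pdia6, Dnajc3, Creld2 and Syvn1. All 8 were called higher in the average (12.2% of all genes), 5 in pIC versus PBS (8.94%) and 3 in RApIC versus ATRA (3.5%). Their median average difference was 0.46. In RApIC versus ATRA 6 of the 8 were called higher when RApIC replicate 2 was left out (6.98% of all genes). Of the 23 measured listed genes that had a window without an ERSE, 9 were called higher and 1 lower in the average, with a median of 0.11. The element goes with role: all of the 8 but Syvn1 were ER folding genes, of which 12 of 13 rose. Pdia3, Dnajb11 and Sdf2l1, ER folding genes with a window and no ERSE, rose too, and Dnajb9 fell. Element and role cannot be told apart here. Sdf2l1 rose with no match in its window, and Hyou1 had no window. Of 21 other measured genes with an ERSE, Alg12 rose (0.59 ± 0.13) and Zfp57 fell (-0.32 ± 0.08). ERSE-II was held by Dnajb11, which rose, and by Herpud1, which was not called. With 1 mismatch allowed, 13 listed genes and 1.72% of all genes held an ERSE. A match is a run of letters and does not show that a factor was bound.

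**Figure D4:**
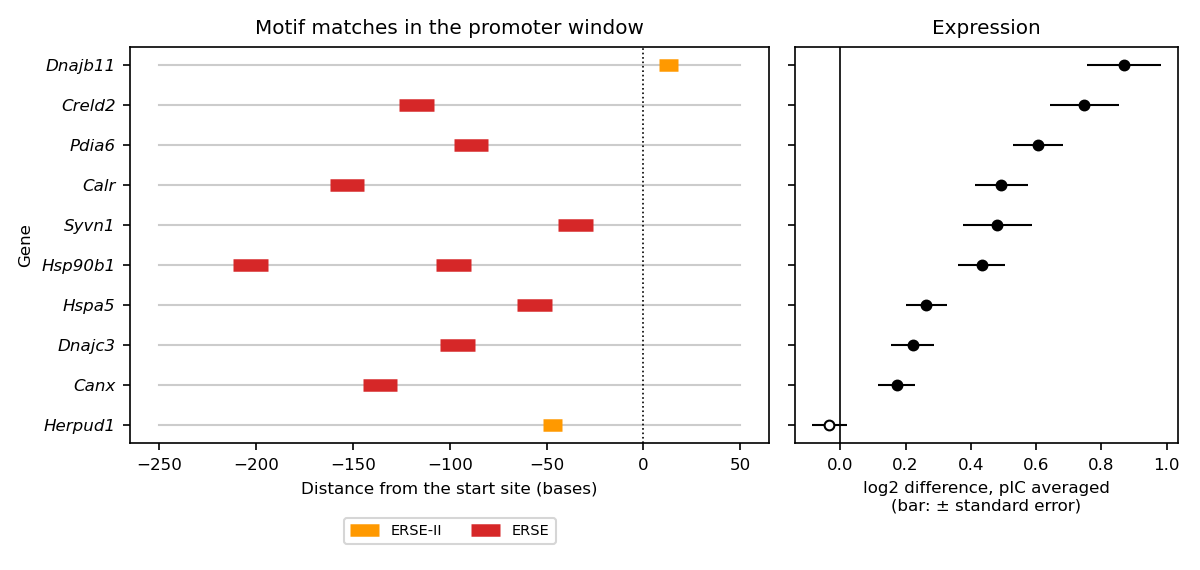
Left, position of the ERSE (red) and ERSE-II (orange) in the promoter window of the 10 listed genes that hold one, in bases from the start site; right, the log2 difference of the gene with pIC averaged over both backgrounds, with bars of 1 SE and filled points for called genes. The 9 filled genes lie between 0.17 and 0.87, and Herpud1, open, at -0.03.

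In ER-associated degradation 2 of 4 genes rose in the average and in pIC versus PBS. None was called in RApIC versus ATRA, where 1, Syvn1, rose without RApIC replicate 2 (6.98% of all genes). Over all genes 12.2% rose in the average and 8.94% in pIC versus PBS. Syvn1 encodes HRD1, the ubiquitin ligase of this pathway. It read 8.74, 8.73 and 8.76 in PBS, 8.64, 8.68 and 8.64 in ATRA, 9.25 and 9.52 in pIC and 9.27, 8.61 and 9.06 in RApIC. Both pIC arrays and RApIC replicates 1 and 3 were above all others, while RApIC replicate 2 was the lowest of the 11. Syvn1 rose by 0.64 ± 0.16 in pIC versus PBS (limma adjusted p = 0.0232), and missed the threshold there under 5 of 19 alternatives (adjusted p up to 0.186). Its difference in RApIC versus ATRA was 0.32 ± 0.14 (adjusted p = 0.217) with and 0.51 ± 0.10 (adjusted p = 0.00719) without RApIC replicate 2.

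Edem1, a lectin-like protein that picks misfolded glycoproteins for degradation, read 9.48, 9.47 and 9.68 in PBS, 9.47, 9.61 and 9.54 in ATRA, 9.99 and 9.95 in pIC and 9.87, 9.64 and 9.79 in RApIC. Both pIC arrays were the highest, and RApIC replicate 2 lay within the range of PBS. Edem1 rose by 0.42 ± 0.10 in pIC versus PBS (limma adjusted p = 0.0172) and by 0.33 ± 0.07 in the average (adjusted p = 0.00480). The rise in pIC versus PBS missed the threshold under 5 of 19 alternatives, with adjusted p up to 0.108. It has another, dim probe set with a pIC minus PBS difference of 0.15, and the mean of both was not called in the average (0.21 ± 0.07, adjusted p = 0.0610). Sel1l, the partner of HRD1, differed by 0.04 ± 0.08 and Herpud1, a membrane component of the same complex and an ER stress target, by -0.03 ± 0.05 in the average, and neither was called.

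In the Atf4 branch 2 of 5 genes, both known targets of Atf4, rose in the average (12.2% of all genes), and Atf4 was not called. Atf4 read 11.33 to 11.40 over the 11 arrays, and its average difference was -0.02 ± 0.05 (limma adjusted p = 0.789). Atf4 is known to be controlled mainly at translation, which an mRNA array does not read. Asns, asparagine synthetase, read 8.43, 8.29 and 8.52 in PBS, 8.21, 8.20 and 8.51 in ATRA, 9.53 and 9.52 in pIC and 9.39, 8.43 and 9.12 in RApIC. The pIC arrays and RApIC replicates 1 and 3 were above all others, and RApIC replicate 2 was level with PBS. Asns rose by 1.11 ± 0.22 in pIC versus PBS (adjusted p = 0.00983). In RApIC versus ATRA it differed by 0.67 ± 0.20 (adjusted p = 0.0690), or by 0.95 ± 0.12 (adjusted p = 0.000828) without RApIC replicate 2.

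Ddit3 encodes CHOP, a transcription factor of prolonged ER stress. It read 8.69, 8.89 and 8.89 in PBS, 8.95, 8.77 and 8.91 in ATRA, 9.87 and 9.99 in pIC and 9.69, 8.88 and 9.59 in RApIC. As for Asns, RApIC replicate 2 lay among the arrays without pIC and the other 4 pIC-treated arrays above them. Ddit3 rose by 1.10 ± 0.20 in pIC versus PBS (limma adjusted p = 0.00623), and its difference in RApIC versus ATRA was 0.51 ± 0.18 (adjusted p = 0.117) with and 0.76 ± 0.10 (adjusted p = 0.000719) without RApIC replicate 2. The median of the T- and NK-cell markers relative to PBS was likewise higher on the 4 arrays and was 0.03 on RApIC replicate 2. Not every marker did so: Nkg7 read at least 9.78 on all RApIC arrays, above the PBS and ATRA arrays. A link between these markers and Asns or Ddit3 was not tested.

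Trib3, a pseudokinase that is induced by CHOP and Atf4, did not rise. It read 7.11, 7.10 and 7.05 in PBS, 7.18, 7.29 and 7.23 in ATRA, 7.03 and 7.08 in pIC and 7.05, 6.86 and 6.91 in RApIC. All 3 ATRA arrays lay above all 8 others. Trib3 fell in RApIC versus ATRA (-0.30 ± 0.07, limma adjusted p = 0.0366) and differed by -0.03 ± 0.08 in pIC versus PBS (adjusted p = 0.863). The fall missed the threshold under 12 of 19 alternatives, the fit without RApIC replicate 2 among them (-0.26 ± 0.08, adjusted p = 0.0569), with adjusted p up to 0.123. Chac1, a glutathione-degrading enzyme, differed by 0.84 ± 0.27 in pIC versus PBS (adjusted p = 0.0648) and by 0.05 ± 0.24 in RApIC versus ATRA (adjusted p = 0.950). Without RApIC replicate 2 the pIC versus PBS difference of Chac1 was unchanged (0.84 ± 0.20). The call there (limma adjusted p = 0.0164) came from a smaller SE, pooled over groups, and not from a larger difference. Chac1 then also rose in the average (0.58 ± 0.14, adjusted p = 0.0119) and differed by 0.33 ± 0.20 in RApIC versus ATRA (adjusted p = 0.366). It had the widest spread within groups of the 37 genes, and its RApIC arrays read 7.66, 6.48 and 6.97.

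Of the 8 measured cytosolic chaperones and heat shock factors 2 rose in the average (12.2% of all genes), 1 in pIC versus PBS (8.94%) and none in RApIC versus ATRA (3.5%). The list's median average difference was 0.08. The numbers were 2, 2 and 1 without RApIC replicate 2. Hsph1, the Hsp110 exchange factor of cytosolic Hsp70, read 10.09, 9.77 and 9.69 in PBS, 9.80, 9.91 and 9.89 in ATRA, 10.58 and 10.72 in pIC and 10.35, 10.09 and 10.30 in RApIC. The pIC arrays were the highest, RApIC replicates 1 and 3 came next, and RApIC replicate 2 was level with PBS replicate 1, the highest array without pIC. Hsph1 rose by 0.80 ± 0.13 in pIC versus PBS (limma adjusted p = 0.00380) and differed by 0.38 ± 0.11 in RApIC versus ATRA (adjusted p = 0.0685), where without RApIC replicate 2 it rose by 0.46 ± 0.12 (adjusted p = 0.0245). The rise against PBS was called under all 19 alternatives, with adjusted p up to 0.0481.

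Hspa4, another Hsp110-family member, read 10.69, 10.59 and 10.72 in PBS, 10.69, 10.60 and 10.71 in ATRA, 10.92 and 10.92 in pIC and 10.89, 10.77 and 10.86 in RApIC. The 5 pIC-treated arrays were above the 6 others by a small margin. Hspa4 rose by 0.21 ± 0.05 in the average (limma adjusted p = 0.0150), and not under cyclic loess scaling or without either pIC array, with adjusted p up to 0.0800. Hspa8, the constitutive Hsp70, differed by 0.05 ± 0.05 in the average on its brightest probe set, a sign that turned under cyclic loess scaling. Its 4 probe sets did not move alike. In pIC minus PBS the brightest differed by 0.06 and the others by 0.22, 0.50 and 0.51, and with the probe set of highest variance Hspa8 rose by 0.43 ± 0.07 in the average (adjusted p = 0.00135).

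The other 5 genes of this group were not called in any comparison. Dnajb1, the Hsp40 partner of Hsp70, differed by -0.19 ± 0.07 in the average (limma adjusted p = 0.0676), the co-chaperone Bag3 by -0.04 ± 0.07 and the small heat shock protein gene Hspb1 by 0.11 ± 0.09. Hsf2, a heat shock transcription factor, differed by -0.20 ± 0.11, with pIC arrays at 6.91 and 6.30. Hsp90aa1, the inducible cytosolic Hsp90, differed by 0.25 ± 0.08 in pIC versus PBS (adjusted p = 0.0529) and by -0.00 ± 0.07 in RApIC versus ATRA.

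Of the 3 mitochondrial chaperones 2 rose in the average and in pIC versus PBS. None was called in RApIC versus ATRA, where the same 2 rose without RApIC replicate 2 (6.98% of all genes). Over all genes 12.2% rose in the average and 8.94% in pIC versus PBS. Hspd1, the chaperonin Hsp60, read 10.24, 9.95 and 10.06 in PBS, 9.85, 10.05 and 10.20 in ATRA, 10.59 and 10.75 in pIC and 10.62, 10.27 and 10.39 in RApIC. The pIC-treated arrays were above the others, with RApIC replicate 2 barely so. Hspd1 rose by 0.59 ± 0.14 in pIC versus PBS (limma adjusted p = 0.0180), and in RApIC versus ATRA the difference was 0.39 ± 0.12 (adjusted p = 0.0828) with and 0.47 ± 0.13 (adjusted p = 0.0348) without RApIC replicate 2.

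Hspa9, the mitochondrial Hsp70 mortalin, read 10.95, 10.89 and 10.94 in PBS, 10.80, 10.79 and 10.93 in ATRA, 11.32 and 11.34 in pIC and 11.33, 10.96 and 11.29 in RApIC. The pIC arrays and RApIC replicates 1 and 3 formed a tight upper set, and RApIC replicate 2 lay just above the highest PBS array. Hspa9 rose by 0.40 ± 0.11 in pIC versus PBS (limma adjusted p = 0.0341). This rise missed the threshold under 6 of 19 alternatives, with adjusted p up to 0.165. In RApIC versus ATRA Hspa9 rose by 0.47 ± 0.08 (adjusted p = 0.00286) without RApIC replicate 2 and was not called with it. Hspe1, the cochaperonin Hsp10 that caps Hsp60, differed by 0.15 ± 0.11 in pIC versus PBS (adjusted p = 0.439) and was not called in any comparison.

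Hspd1 and Hspe1 are neighbours that share a promoter running in both directions. A heat shock element, searched as GAANNTTCNNGAA or TTCNNGAANNTTC on both strands, was found in Hspd1, Hspe1 and Hsph1, 3 of 33 listed genes (9.09%), and in 0.662% of all. For Hspd1 and Hspe1 it is the same stretch, chosen for printing after its values were seen, because 1 match lies in the windows of a gene that rose and of a gene that was not called. It lies at chr1:55088049-55088086 and is printed on the minus strand, that of Hspd1, with the alternating units in capitals.
Hspd1: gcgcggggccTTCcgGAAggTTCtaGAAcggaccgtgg
The amino acid response element TGATGNAAT, known from promoters of Atf4 targets, was found in none of the 33 windows and in 1.08% of all genes. This says only that these letters are not in the windows.

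In RApIC versus ATRA 5 listed genes were called higher, where 3.5% of all genes were, and 2 lower, where 3.71% were. The 5 were Sdf2l1, Pdia6, Creld2, Dnajb11 and Hsp90b1, and the 2 were Dnajb9 and Trib3. All but Trib3 were also called in pIC versus PBS, in the same direction. Of the 16 listed genes higher there 5 were higher here, as were 629 of 1984 among all genes. Of the 5 higher here 5 were higher there, as were 629 of 777 among all genes. Called higher in both were 2.84% of all genes, and lower in both 2.47%. All 3 RApIC arrays lay above all 3 ATRA arrays in 17 of the 37 genes (11.7% of all genes) and below them in 3 (12.4%). Of the 37 genes 33 (89.2%) had the same sign in both contrasts, as had 68.8% of all genes, and the contrasts share no array.

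**Figure D5:**
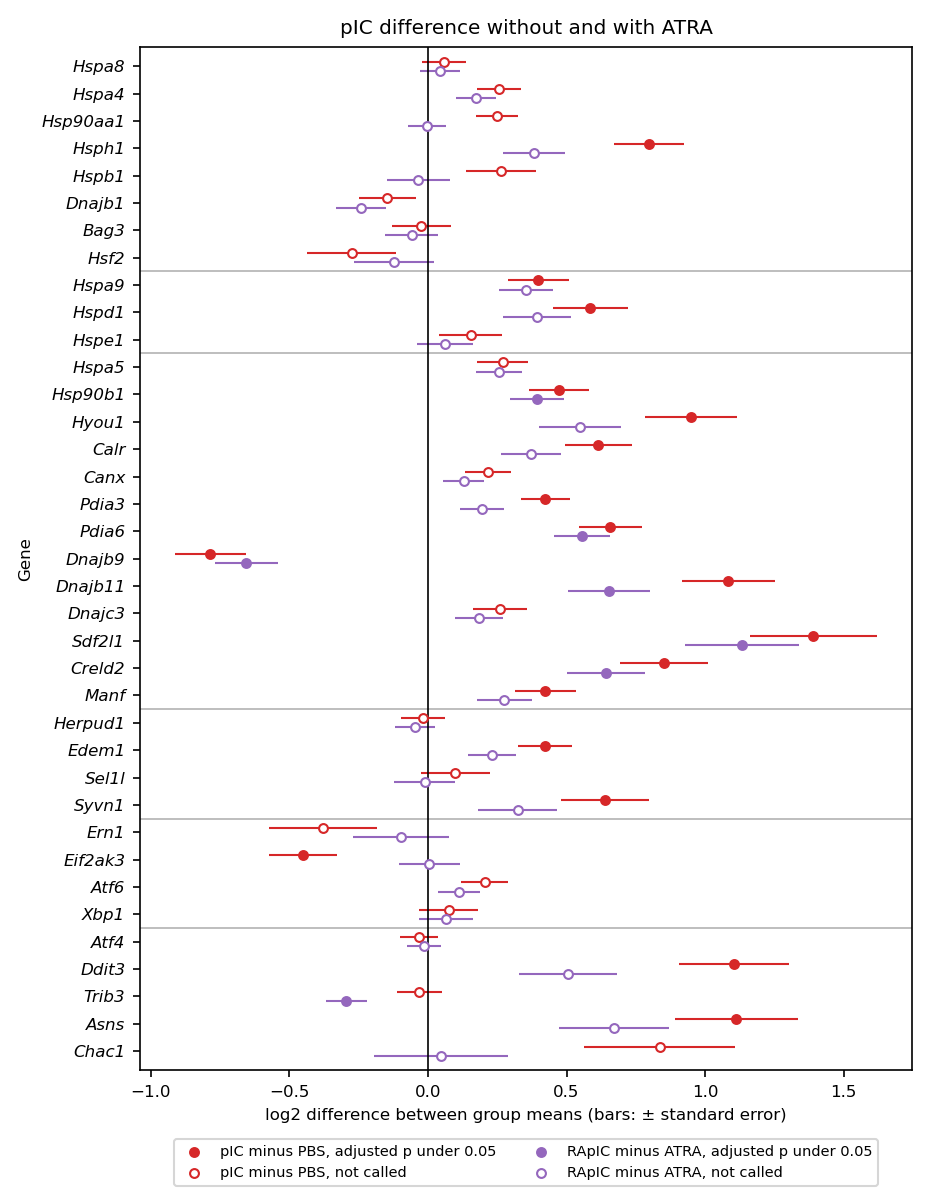
Log2 difference with pIC for each of the 37 genes (rows, by role) without ATRA (red, pIC minus PBS) and with it (purple, RApIC minus ATRA); bars are 1 SE and filled points have an adjusted p under 0.05. In all 13 ER folding genes the purple point lies nearer to 0 than the red one, with no interaction called, but without RApIC replicate 2 this holds for 9 of the 13, and the interaction goes from -0.26 to 0.03 for Sdf2l1 and from -0.43 to -0.23 for Dnajb11.

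The calls with ATRA depended on single arrays. Without RApIC replicate 2, 15 listed genes were called higher in RApIC versus ATRA (6.98% of all genes) and 1 lower (7.51%), and the 15 took in Asns, Ddit3, Hspa9, Hspd1, Hsph1, Hspa5, Calr, Hyou1, Manf and Syvn1 as well as the 5. Without any 1 ATRA array or RApIC replicate 1 the number called higher was 2, and without RApIC replicate 3 it was 0. Array weights led to 19, and a fit of only these groups to 0. The weights of RApIC replicates 1, 2 and 3 were 0.65, 0.37 and 4.19, so that replicate 3 dominated the weighted RApIC mean. RApIC replicate 2 was the lowest of the 5 pIC-treated arrays in 29 of the 37 genes, as in 28.6% of all genes, and above all 6 arrays without pIC in 15, as in 17.9%. Among the 20 listed genes called higher in the average these numbers were 20 and 13, where they were 74.1% and 52.1% of all genes so called. On that array the T- and NK-cell list stood at 0.03 and the erythroid list at -0.24 relative to PBS (medians), against 1.10 and 1.08, and 0.59 and 0.36, on RApIC replicates 1 and 3.

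Against PBS, RApIC gave 4 genes called higher (1.61% of all genes) and 1 lower (1.51%): Pdia6, Dnajb11, Sdf2l1 and Creld2, and Dnajb9. The comparison shares its arrays with the 2 above. All 3 RApIC arrays lay above all 3 PBS arrays in 16 of the 37 genes (9.82% of all genes) and below them in 5 (10.5%). Without RApIC replicate 2 the calls were 13 higher (5.48%) and 1 lower (5.65%). The number higher was 0 without PBS replicate 2 or RApIC replicate 1 or 3, 2 without PBS replicate 1, and 1 without any other array left out in turn. The fall of Dnajb9 was not called without PBS replicate 1 or 2 or RApIC replicate 1 or 3.

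In ATRA versus PBS none of the 37 genes was called, where 0.00451% of all genes were called higher and 0.0% lower. The ATRA arrays lay above all PBS arrays in 3 genes, Hsp90aa1, Hspb1 and Trib3 (6.61% of all genes), and below them in 2, Dnajb1 and Syvn1 (6.08%). At an unadjusted p under 0.05 there was 1 gene, Hspb1, where 6.8% of all genes passed. Hspb1 read 5.31, 5.32 and 5.54 in PBS, 5.59, 5.75 and 5.77 in ATRA, 5.71 and 5.59 in pIC and 5.91, 5.50 and 5.60 in RApIC, and all 3 ATRA arrays were above all 3 PBS arrays (0.31 ± 0.11, limma adjusted p = 0.638). Another probe set of Hspb1 read 5.55 in PBS and 5.56 in ATRA on average. The median absolute difference of the 37 genes was 0.04, against 0.08 over all genes.

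Retinoic acid given before pIC left no called difference either. In RApIC versus pIC none of the 37 genes was called, as was no gene of all (0.0% in either direction). At an unadjusted p under 0.05 Ern1 was higher and 6 genes were lower, 10.1% of all genes passing. The 6 were Hsph1, Ddit3, Syvn1, Asns, Hyou1 and Dnajb11, with differences from -0.55 ± 0.20 for Ddit3 to -0.37 ± 0.17 for Dnajb11 and a smallest adjusted p of 0.351 (Hsph1). These differences were smaller without RApIC replicate 2, at -0.29 ± 0.10 for Ddit3, -0.32 ± 0.13 for Hsph1, -0.27 ± 0.13 for Asns, -0.24 ± 0.15 for Hyou1, -0.22 ± 0.11 for Syvn1 and -0.17 ± 0.10 for Dnajb11, and 0.27 ± 0.12 for Ern1. Ddit3 and Hsph1, lower, and Ern1, higher, then had an unadjusted p under 0.05 (7.75% of all genes), and the smallest adjusted p was 0.537. The median of the 37 was -0.12 with the array and -0.05 without it. With it, all 3 RApIC arrays lay below both pIC arrays in 11 genes, Asns and Ddit3 among them (17.4% of all genes), and above them in 1, Ern1 (9.74%). In the interaction, which tests whether the pIC difference depended on ATRA, none was called in a fit that called no gene (0.0%). Hsp90aa1, Hsph1, Ddit3 and Trib3 were lower and Eif2ak3 higher at an unadjusted p under 0.05, where 6.27% of all genes passed, with a median of -0.10 over the 37. The largest fitted difference was that of Chac1 (-0.79 ± 0.36, adjusted p = 0.794). Without RApIC replicate 2 it was -0.51 ± 0.28, that of Ddit3 went from -0.60 ± 0.26 to -0.34 ± 0.14, and Ddit3, Hsp90aa1 and Eif2ak3 had an unadjusted p under 0.05 (6.17% of all genes). With ATRA averaged over both backgrounds none was called, where 0.0361% of all genes were called higher and 0.00451% lower, and 5 of the 37 had an unadjusted p under 0.05, as had 10.7% of all genes: Ern1, higher, and Hsph1, Dnajb1, Sdf2l1 and Syvn1, lower. Leaving out RApIC replicate 2, these were Ern1 and Hspb1, higher, and Sdf2l1 and Syvn1, lower (9.7% of all genes).

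Genes of the same pathways outside the 41 were read from lists fixed by function. Of 32 other ER folding and quality control genes 17 rose and none fell in the average over both backgrounds, with a median of 0.22, where 12.2% of all genes rose and 9.89% fell. The smallest adjusted p belonged to the oligosaccharyltransferase subunit Ostc (0.44 ± 0.07, limma adjusted p = 0.00121) and the disulfide isomerase P4hb (0.37 ± 0.06), followed by Txndc11 and the glucosidase II subunit Prkcsh. Of 29 other cytosolic chaperones and co-chaperones 17 rose and 1 fell, led by the chaperonin subunits Cct3 (0.48 ± 0.06) and Cct7 (0.45 ± 0.06), then the Hsp90 co-chaperones Ahsa1 and Ptges3. Of 12 other mitochondrial chaperones and proteases 5 rose and none fell, among them the mortalin exchange factor Grpel1 (0.67 ± 0.11), Htra2, Dnaja3 and the protease Lonp1. The numbers that rose without RApIC replicate 2 were 19 of 32, 19 of 29 and 5 of 12.

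In the list of 24 other integrated stress response genes 16 rose and 1 fell in the average (12.2% and 9.89% of all genes), with and without RApIC replicate 2. The gene that fell was Ppp1r15a, which encodes GADD34, the phosphatase subunit that reverses eIF2 phosphorylation (-0.82 ± 0.06, limma adjusted p = 2.74e-05). It averaged 11.30 in PBS, 11.15 in ATRA, 10.32 in pIC and 10.50 in RApIC. Eif2ak2, the interferon-induced double-stranded RNA sensor PKR, rose by 1.31 ± 0.10, from 8.42 in PBS to 9.84 in pIC. The amino acid transporter gene Slc7a5 rose by 0.87 ± 0.09 and the serine synthesis gene Psat1 by 0.67 ± 0.08. Within groups the 37 listed genes varied about as much as other genes, with a median pooled SD of 0.12 against 0.13.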

How the data were processed

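Per the labels' protocols, RNA of the sorted HSCs was turned into biotin-labelled cRNA with a kit from Affymetrix. The values used are the authors' deposited log2 intensities of 41345 probe sets on 11 arrays. The submitters' processing notes name oligo 1.36.1, RMA and limma 3.28.20. RMA, whose usual form includes quantile normalisation, makes the array distributions alike, so differences are relative to the bulk of probe sets.

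Probe sets were named from the platform's annotation: 23521 had 1 gene symbol, 1814 several and 16010 none listed. A gene with several probe sets (1082 of 22180) was read from the one brightest on average. limma 3.58.1 (R 4.3.3) fitted 4 group means to the 11 arrays. It left 7 residual degrees of freedom, 10.72 after moderation, and gave two-sided tests and Benjamini-Hochberg adjustment over all genes. It was tested on simulated data. Promoters were RefSeq windows (GRCm38.p6). Figures were made with matplotlib 3.10.9.

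The genes, lists and tests were chosen with earlier results of these data known. Values on each array are given for up to 5 called genes per role group, by adjusted p with pIC averaged over both backgrounds. Companion and marker lists name up to 4 genes each, and promoters are printed for up to 6 genes. Values on each array of Ern1 and Hspb1, and Atf4, Xbp1, Ern1, Hyou1 and Hspa5 in the plots, were added after their values were seen. A planned look at the ER retention ends of the proteins was not run, since no protein sequences were at hand.

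Alternative fits used cyclic loess scaling, array weights, a trend and robust prior, a block for the replicate number, only the groups compared, or all arrays but 1. Others dropped the dimmest 40% of genes or read a gene from its most variable probe set or from the mean of its probe sets. The ERSE was also searched with 1 mismatch.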

Additional observations from a re-analysis of the deposited data

Results flagged for a closer look

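Hsp90aa1, the inducible cytosolic Hsp90, was flagged for opposite positions of its arrays with retinoic acid. All 37 measured genes were scanned for such a pattern, so the flag alone does not set this gene apart. Every ATRA array (9.31, 9.32 and 9.31) lay above every PBS array (9.27, 9.13 and 9.27), and every RApIC array (9.30, 9.31 and 9.31) lay below both pIC arrays (9.43 and 9.52). The differences were 0.09 ± 0.07 and -0.16 ± 0.08, which are 0.25 apart. Over all genes 6.61% had every ATRA array above every PBS array, and 17.4% every RApIC array below both pIC arrays. The share with both was not counted. The opposite order of the arrays was itself not tested, and the interaction in limma gave -0.25 ± 0.10 (adjusted p = 0.785). No group held enough arrays to look for outlying single values.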

How the results depend on the processing

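With pIC averaged over both backgrounds the number of genes called higher stayed within 1.5 times of 20 under every alternative run, at 16 to 21 with arrays left out. The number lower went from 1 to 4 with array weights, 3 without the dimmest genes and 2 with loess scaling or a trend and robust prior, and was 1 to 2 with arrays left out (all genes 3447 to 5775). In pIC versus PBS the number lower was 1 with only the groups compared. With arrays left out 3 to 18 were higher, 0 to 3 lower and 664 to 4052 of all genes called.

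In RApIC versus ATRA the number higher was 19 with array weights, 10 without the dimmest genes or with a trend and robust prior, and 0 with only the groups compared. The number lower was 1 with loess scaling, the trend and robust prior or only the groups compared. Of all genes 4588 were called with array weights and 305 with only the groups compared. With arrays left out these were 0 to 15, 1 to 2 and 476 to 3214. In RApIC versus PBS the number higher was 14 with array weights, 7 without the dimmest genes or with a trend and robust prior, 2 with loess scaling and 0 with only the groups compared. The number lower was 2 without the dimmest genes, with loess or with the trend, and 0 with only the groups compared. All genes called numbered 3127, 1212 (dimmest left out), 1044 (trend) and 70 (only the groups compared). With arrays left out these were 0 to 13, 0 to 1 and 159 to 2469.

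No listed gene was called in ATRA versus PBS, RApIC versus pIC, the interaction or the ATRA average under any alternative. Of all genes, ATRA versus PBS called 28 with array weights, 16 without the dimmest and 22 with the trend, and 1 to 26 with arrays left out. RApIC versus pIC called 112 with array weights and 0 to 1 with arrays left out, the interaction 0 to 1, and the ATRA average 148, 14 and 22, and 1 to 18. Under loess the scores of pIC replicates 1 and 2 were 0.16 and 0.23. With 1 mismatch allowed the ERSE was found in 13 listed genes and 1.72% of all. No called gene changed sign.

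The replicate number as a block gave 1 lower in RApIC versus ATRA, 2 higher in RApIC versus PBS and 4 genes in all in ATRA versus PBS. Its other counts stayed within 1.5 times. Deviations from group means correlated at -0.11 to 0.10 in 15 same-numbered pairs of arrays and at -0.14 to 0.11 in 30 other pairs. Deviations within such small groups cancel by construction, so these correlations are a weak check of whether the numbers pair the arrays. The cause of the changes in counts was not tested. Groups of 2 or 3 arrays limit all counts.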
